A study of Mus musculus with 3 samples.

Results

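The proteasome genes of the mouse were examined for binding of the retinoic acid receptor RARα and its partner, the retinoid X receptor RXRα, in liver. The members were the protein-coding genes of the GENCODE M1 annotation (build NCBIM37, mm9) whose symbols begin with Psma to Psmg followed by a digit, which gave 50 of 22225 gene symbols. Of these, 14 encode core subunits, 17 encode subunits of the regulatory particle, and 5 encode the immunoproteasome subunits together with the activator that works with them. The other members are 7 assembly chaperones, 3 further activators or inhibitors, the 2 tissue-restricted subunits Psma8 and Psmb11, Psmc3ip, which shares the start of its name but is a recombination factor and no subunit, and Psme2b-ps, a copy of Psme2 that is named as a pseudogene but annotated as coding. The symbols Psmd14 and Psmb9 have 2 gene models each in the annotation, and the longest model was used.

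Chromatin immunoprecipitation and sequencing (ChIP-seq) was done with liver of wild type male C57BL/6 mice aged 3 months. Chromatin was pulled down with an antibody against RXRα or with the Santa Cruz antibody sc-551x against RARα, and the input DNA is the background of the RXRα library. Each of the 3 groups holds 1 library, so no value below has a replicate check, no test between conditions was possible and no p-value is given. The livers carry both receptors, no mice lacking either were used here, and the whole tissue holds hepatocytes along with other cells whose shares cannot be told apart in these values.

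The proteasome is the protease that degrades proteins tagged with ubiquitin. Its core is a barrel of stacked rings, in which alpha subunits form the outer rings and the gate and beta subunits form the inner rings with the protease sites, while the regulatory particle caps the barrel, binds ubiquitin and unfolds the substrate with a ring of ATPases. In cells exposed to interferon, special beta subunits replace the usual ones and yield peptides suited for display to T cells. RARα and RXRα are nuclear receptors that form a pair and typically bind direct repeats of a 6-base motif.

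The RXRα track held 9999939 reads and the input track 9999292 reads, each counted as 5 bins of 32 bp per read. The totals are nearly equal and differ from the number of mapped reads that the study gives for RXRα, so the tracks may be a subset of the reads or rescaled values. In both tracks the signal of each of 22 chromosomes was a multiple of 5, as whole reads would give, but which of these holds was not tested. Of the signal, 0.261% of RXRα and 3.64% of input lay on the mitochondrial chromosome. For RARα a list of 143280 peaks was used, of which 32946 had a score above 20. Whether this score is the fold over input that the methods use as a background limit is not given in the sources used here, and the list does not hold the number of reads behind each peak. The labelled tissue was checked with 6 liver genes, all 6 of which were bound by both receptors, RARα by its peaks and RXRα by the regions defined below, in the 10 kb either side of the gene start. Their median RXRα enrichment was 8.98, against 0.225 for 6 genes of other tissues, 1 of which had a RARα peak (Neurog2, score 22).

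RARα binding was found at most proteasome genes. A RARα peak with a score above 20 had its summit within 10 kb of the start of 43 members (86%), against 52.3% of all protein-coding genes. Within 1 kb the count was 41 members (82%), against 40.9% of all genes. A start was called CpG-rich where the promoter of 300 bp had at least 0.6 of the CpG content that its C and G content gives. This held for 35 of 50 members (70%), against 45.3% of all genes, and among all CpG-rich starts the share with a RARα peak within 1 kb was 70.2%. The part of CpG content in the difference was not tested.

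RXRα was found less widely at the threshold used here, 20 times input, where its shares lay closer to those of all genes. An RXRα region consists of bins with at least 20 times the larger of local and mean input, joined within 200 bp. Such a region lay within 10 kb of 23 members (46%), against 39.9% of all genes and 51.8% of the CpG-rich starts. Within 1 kb there were 12 members (24%), against 21.6% of all genes. A RARα peak that overlapped an RXRα region by at least 25% of the narrower interval, called co-localized here, was found for 16 members (32%), against 23.6% of all genes. Of the members bound by RARα, 37.2% had such a peak, below the 45.1% over all genes bound by RARα. The remaining members comprised 7 with both kinds of binding but apart, 20 with RARα only and 7 with neither, and none of the 50 had an RXRα region alone. Over all 22225 genes, 11615 had a RARα peak, 8858 an RXRα region and 7260 both. Most genes with an RXRα region thus had a RARα peak as well, and the difference from the members was not tested. The distance to all genes depended on the threshold. At 10 times input 43 of the 50 had an RXRα region (60.3% of all genes) and 31 a co-localized peak (39.0%). At 30 times input the counts were 15 (27.9%) and 7 (14.9%), so the members were no longer above all genes in the co-localized share.

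**Figure D1:**
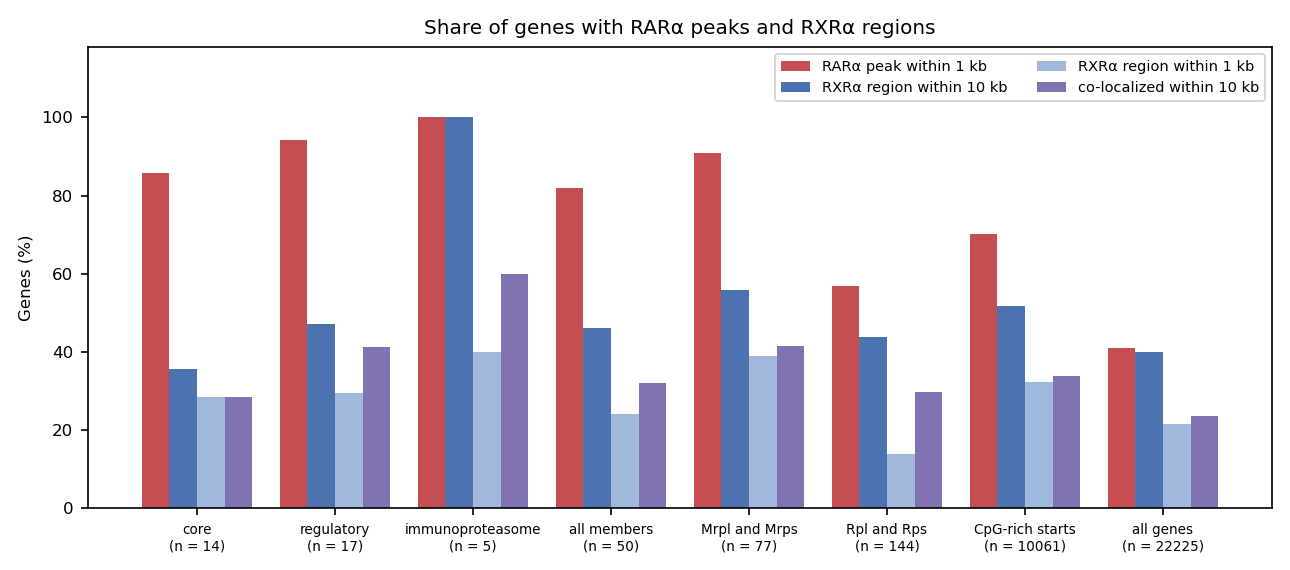
Share of genes (%, vertical axis) with a RARα peak within 1 kb, an RXRα region within 10 kb or 1 kb, and a co-localized RARα peak within 10 kb, for classes of proteasome genes, 2 ribosomal protein families, CpG-rich starts and all genes. The RARα bar of the 50 members (82%) stands far above that of all genes (40.9%), while the bars for RXRα regions within 1 kb are close (24% and 21.6%).

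A graded measure of RXRα was the enrichment, the ratio of RXRα to input reads in the window of 500 bp either side of the gene start, with the input taken as at least its genome mean of 3.74 reads. Its median over the 50 members was 3.02 (range 0 to 7.70), against 1.57 over all genes. It was at least 2 at 39 members (78%; all genes 44.4%), and the 95% interval of the ratio lay above 1 at 37 members (74%; all genes 40.9%). These exact intervals take the reads rounded to whole numbers and cover counting error only, and they hold only as far as the track values are true read counts. Other sets of genes had similar or higher values, with a median of 3.20 over CpG-rich starts and 3.79 over the 7706 CpG-rich starts that had a RARα peak. These sets are not like the members as a whole. Of the 50, 35 had a CpG-rich start and 43 a RARα peak within 10 kb. Input itself was also higher at the members, with a median of 2.41 times the genome mean against 1.30 over all genes, and its part in the enrichment was not tested.

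**Figure D2:**
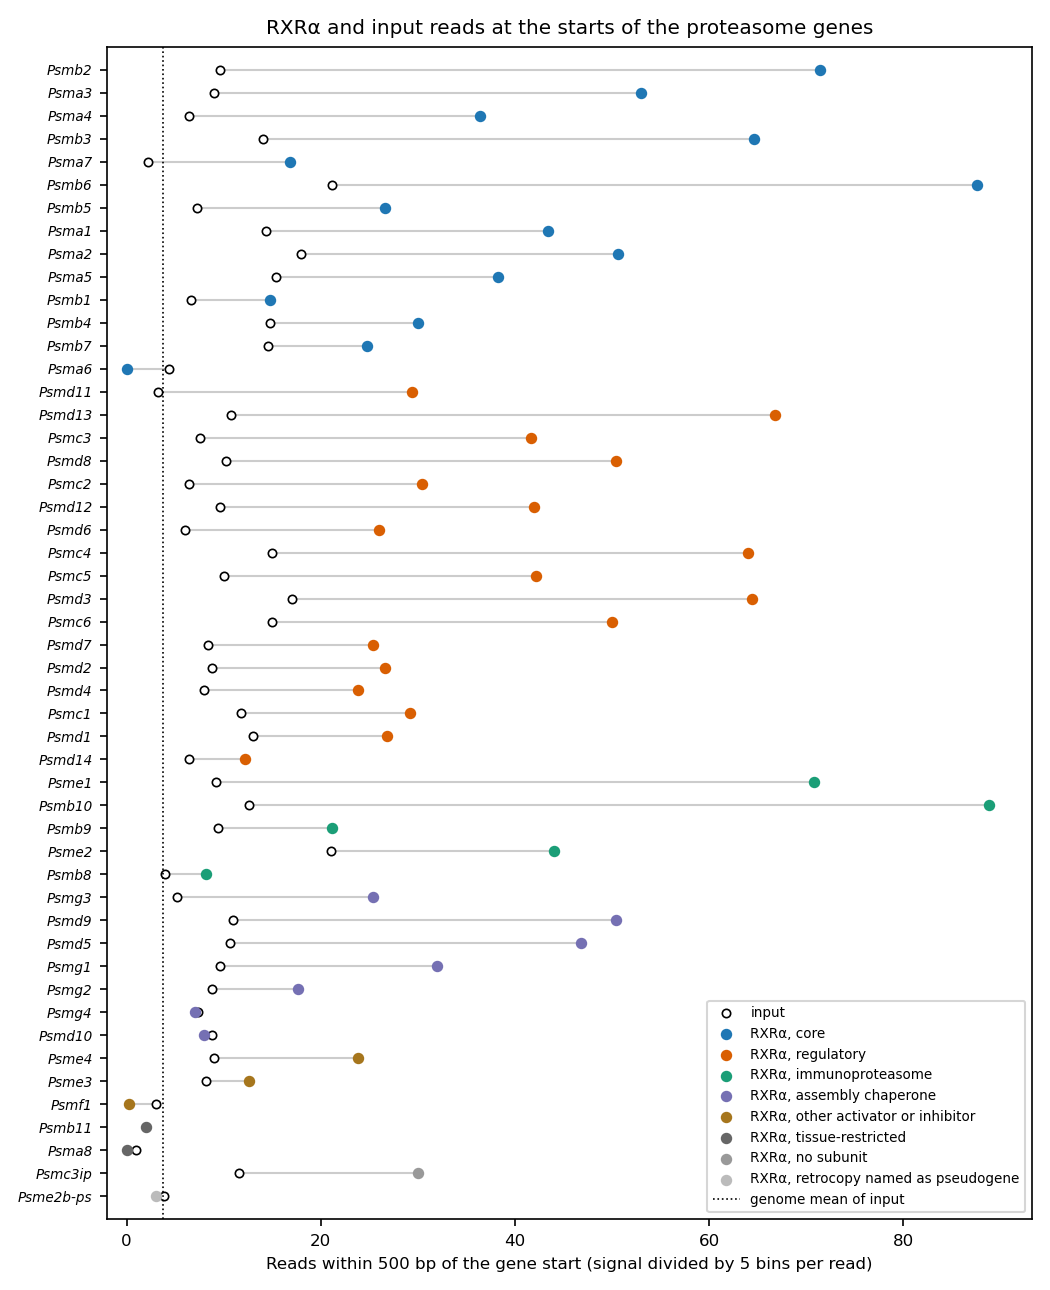
Reads of RXRα (filled) and input (open) within 500 bp of each of the 50 gene starts (horizontal axis, reads), by class and ordered by enrichment within a class. RXRα exceeds input at most starts, up to 88.8 against 12.6 reads at Psmb10, and is at 0 or near it at Psma6, Psmf1 and Psma8.

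Among the 14 core subunits, 12 had a RARα peak, all of them within 1 kb of the start. This share of 85.7% stands against 40.9% of all genes and 70.2% of the CpG-rich starts. An RXRα region lay within 10 kb of 5 (35.7%, against 39.9% of all genes), and 4 had a co-localized peak (28.6%, against 23.6%). Of the core genes with a RARα peak this was 33.3%, below the 45.1% over all genes bound by RARα. The median enrichment was 3.35 (range 0 to 7.44), with 3.01 for the 7 alpha and 3.69 for the 7 beta subunits. The highest was that of Psmb2, a beta subunit without a protease site, with 71.4 RXRα reads against 9.6 input reads, an enrichment of 7.44 (95% interval 3.64 to 15.4). Its RARα peak of score 51 had the summit 29 bp upstream of the start and overlapped an RXRα region whose highest ratio was 26.

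The highest RARα score of the core was that of the alpha subunit Psma1, 72 at 17 bp into the gene, with 43.4 against 14.4 reads at the start (3.01, 1.65 to 6.08) and no RXRα region. Psma4, an alpha subunit, had 36.4 RXRα reads against 6.4 input reads at its start, an enrichment of 5.69 (2.50 to 17.4). Its RARα peak of score 55 lay 87 bp upstream and was co-localized. A second co-localized peak of score 22 lay 8467 bp upstream, where the highest RXRα ratio near any member was found (74.7). At Psmb3, another beta subunit without a protease site, 64.6 RXRα reads faced 14 input reads (enrichment 4.61, 2.58 to 8.96), and the co-localized peak of score 58 was centred 303 bp upstream. At the alpha subunit Psma5, the co-localized peak of score 38 lay 256 bp into the gene, with 38.2 against 15.4 reads and an enrichment of 2.48 (1.36 to 4.96).

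The catalytic beta subunits of the standard core differed in their RARα peaks, while the intervals of their RXRα enrichment overlapped. Psmb6, with caspase-like activity, had the most RXRα reads of the core (87.6 against 21.2 input reads, enrichment 4.13, 2.58 to 7.10) and 6 RARα peaks within 10 kb, more than any other member. The strongest of them scored 58 and lay 46 bp into the gene, while 3 of the 6 were nearer to the starts of Gltpd2 or Vmo1. Psmb5, with chymotrypsin-like activity, had 26.6 RXRα reads against 7.2 (enrichment 3.69, 1.64 to 10.5) but no RARα peak above the threshold. The highest score near it was 12, at 6641 bp and 7921 bp downstream of the start. Psmb7, with trypsin-like activity, had the lowest RARα score of the core, 25, at 162 bp into the gene, and 24.8 against 14.6 reads (1.70, 0.845 to 3.40). The interval of Psmb7 holds 1, so RXRα was not detectable above input there at this depth.

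Both Psmb5 and Psmb6 carry the core of the antioxidant response element, TGACNNNGC, just before the start. This element is the binding motif of the factors encoded by Nfe2l1 and Nfe2l2, of which the first is known for raising proteasome gene expression. The 100 bases before the start on the gene's strand are shown with the motif in capitals, for Psmb5 from chr14:55236852-55236951 (minus strand) and for Psmb6 from chr11:70338769-70338868 (plus strand) of the NCBIM37 sequence.
Psmb5: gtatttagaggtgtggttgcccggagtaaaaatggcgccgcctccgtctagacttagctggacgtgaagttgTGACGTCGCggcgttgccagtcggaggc
Psmb6: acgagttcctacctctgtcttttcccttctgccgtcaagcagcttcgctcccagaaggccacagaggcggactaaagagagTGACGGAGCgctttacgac
In promoters of 300 bp (250 bases before to 50 after the start, both strands), this core was found at 7 of 50 members (14%). The share was 12.5% of all promoters, so in promoters the core was about as common as elsewhere. The 7 were Psmb2, Psmb5, Psmb6, Psmc6, Psmd7, Psmd12 and Psmd9. In windows of 201 bp the core was more frequent, in 9 of 40 RXRα regions near members (22.5%, against 10.9% of all RXRα regions). It was in 13 of 82 RARα peaks near members (15.9%, against 9.93% of all filtered peaks). The member regions and peaks lie near gene starts, while all regions and all filtered peaks were not chosen by position, and these differences were not tested.

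The gene Psma6, an alpha subunit, was the exception among the core genes, with 0 RXRα reads against 4.4 input reads at its annotated start and no RARα peak of any score within 10 kb. The upper bound of its ratio was 1.52. The annotation holds a second transcript start at position 56499762 of chromosome 12, 14553 bp further downstream, and there the picture was different. At that start 49 RXRα reads faced 7.6 input reads (enrichment 6.45, 2.88 to 15), a RARα peak of score 78 had its summit 107 bp upstream, and an RXRα region with a highest ratio of 34.9 lay 82 bp upstream. With every transcript start counted, the members with a RARα peak within 10 kb were 44, against 53.9% of all genes.

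The 17 regulatory subunits all had a RARα peak within 10 kb, as did 52.3% of all genes and 76.6% of the CpG-rich starts. Within 1 kb, 16 had one (94.1%, against 40.9% and 70.2%). An RXRα region lay within 10 kb of 8 (47.1%, against 39.9% of all genes), and 7 had a co-localized peak (41.2%, against 23.6%). As all 17 had a RARα peak, that 41.2% was below the 45.1% over all genes bound by RARα. It was also below the 44.3% over CpG-rich starts with a RARα peak. The median enrichment was 4.22 (range 1.91 to 7.62), with 4.24 over the 6 ATPases (Psmc1 to Psmc6) and 3.79 over the 11 non-ATPase subunits. The interval lay above 1 at 16 of 17 (94.1%, against 40.9% of all genes and 65.7% of the CpG-rich starts).

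Psmd11, a scaffold subunit of the lid, had the highest enrichment of the class, 7.62, from 29.4 RXRα reads against 3.2 input reads. Its interval was wide (3 to 49.6), as the input count was low. The RARα peak of score 64 was centred 62 bp upstream and co-localized, and a stronger RXRα region (highest ratio 64.7) lay 2107 bp downstream in an intron without a RARα peak above the threshold. Psmd13, another lid subunit, followed with 66.8 against 10.8 reads (6.18, 3.20 to 12.8) and RARα peaks of 90 at 172 bp and 56 at 1252 bp upstream, both co-localized. Its start is 341 bp from that of Sirt3, a mitochondrial deacetylase on the opposite strand, so the peak serves as a near-start peak for both genes.

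The ATPase gene Psmc4 had a RARα score of 98, the highest of any peak within 1 kb of a member, with the summit 245 bp upstream. That peak was co-localized, and 64 RXRα reads faced 15 input reads at the start (4.27, 2.40 to 8.06). Psmc3, an ATPase as well, had a peak of 53 and an RXRα region with a highest ratio of 36.5 at 186 bp into the gene, with 41.6 against 7.6 reads (5.47, 2.44 to 13). In Psmc2, the co-localized peak of score 57 lay 1444 bp into the gene in a coding exon, beside an RXRα region whose ratio of 21.6 barely passed the threshold. Its start had 30.4 against 6.4 reads (4.75, 2.05 to 14.7), lies only 32 bp from that of Dnajc2 and was the only one of the 17 without a RARα peak within 1 kb.

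The strongest peak of Psmd12, a lid subunit, scored 135 but lay 8773 bp upstream at chr11:107331711-107332650, 9 bp from the start of Pitpnc1, a lipid transfer protein. A second peak of score 67 lay 77 bp into Psmd12 itself. Both were co-localized, with RXRα ratios of 23.2 in each region, and the start had 42 against 9.6 reads (4.38, 2.07 to 9.39). At Psmd1, a large scaffold of the base, the strongest peak (78) lay 4787 bp upstream without an RXRα region, the co-localized one (35) lay 7912 bp upstream, and the start itself had 26.8 against 13 reads (2.06, 1.04 to 4.38). The lowest of the class was Psmd14, the deubiquitinase of the lid, with 12.2 against 6.4 reads (1.91, 0.695 to 6.5) and a score of 27. The interval holds 1, as did those of Psma6, Psmb1 and Psmb7 in the core.

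A promoter motif was frequent among the regulatory genes. The ETS core CCGGAAG, read on both strands, was found in the 300 bp promoters of 10 of the 17 regulatory genes, of 0 of 14 core genes and of 0 of 5 immunoproteasome genes. Over all members it was found in 17 of 50 (34%), against 10.8% of all promoters and 19.2% of the CpG-rich ones. The motif was thus not confined to the regulatory class. The rest of the 17 were Psma8, Psmc3ip, Psme2b-ps, Psme3, Psme4, Psmg1 and Psmg3. CpG-rich starts were held by 14 of 17 regulatory, 10 of 14 core and 2 of 5 immunoproteasome genes, and the difference in motif counts was not tested. ETS factors bind this motif in the promoters of many housekeeping genes. The 100 bases before the start are shown for 4 regulatory genes on the gene's strand with the match in capitals (CTTCCGG is the motif on the other strand), from chr12:101348296-101348395 for Psmc1, chr2:90894066-90894165 for Psmc3, chr11:80242017-80242116 for Psmd11 and chr16:20651625-20651724 for Psmd2, all on the plus strand of NCBIM37.
Psmc1: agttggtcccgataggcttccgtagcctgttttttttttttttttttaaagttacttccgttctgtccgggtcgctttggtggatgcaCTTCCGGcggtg
Psmc3: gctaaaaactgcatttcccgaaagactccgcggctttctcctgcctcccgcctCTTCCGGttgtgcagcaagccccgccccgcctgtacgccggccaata
Psmd11: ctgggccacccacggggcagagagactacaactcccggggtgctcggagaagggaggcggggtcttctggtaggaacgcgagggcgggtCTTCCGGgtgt
Psmd2: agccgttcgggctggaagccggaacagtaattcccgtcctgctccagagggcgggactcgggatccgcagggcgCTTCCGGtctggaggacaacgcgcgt
The matches begin 12, 47, 11 and 26 bases before the start. A match is a description of the letters and does not show that a factor binds there, and no match says only that these letters are not in this window.

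**Figure D3:**
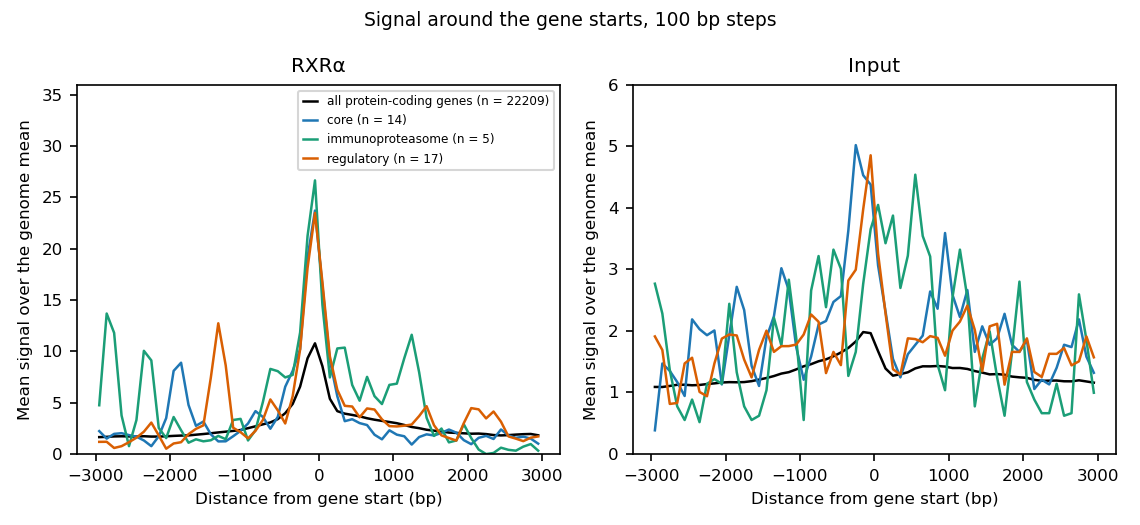
Mean RXRα signal (left) and input signal (right) in steps of 100 bp around the gene starts, each over the genome mean of its track, for core, regulatory and immunoproteasome genes and for all protein-coding genes (22209, without 16 genes whose input exceeded 20 times the mean). At 50 bp upstream RXRα reaches 23.7, 23.5 and 26.7 times the mean in the 3 classes and 10.8 over all genes, while input reaches 4.38, 4.85, 3.65 and 1.96.

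In the profile around the starts, the 3 classes had nearly the same height just upstream of the start, at more than the level of all genes in both tracks. The classes are small, so 1 gene can raise a line. The regulatory line reached 12.7 at 1350 bp upstream, where Psmd13 has an RXRα region. The immunoproteasome line reached 13.7 at 2850 bp upstream, next to the RXRα region in Tap1 centred 2794 bp upstream of Psmb8. It reached 11.6 at 1250 bp downstream, where Psmb10 has a region.

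All 5 immunoproteasome genes had a RARα peak within 1 kb (40.9% of all genes) and an RXRα region within 10 kb (39.9% of all genes). A co-localized peak was found for 3 (60%), against 23.6% of all genes and 45.1% of all genes bound by RARα. Those 3, Psmb10, Psme1 and Psme2, had them beyond 1 kb of the start, and the co-localized peaks of Psme1 and Psme2 are the same peak. The median enrichment was 2.26 (range 2.05 to 7.70), and the class fell into 2 genes with high and 3 with low values. Psme1 and Psme2 lie near each other, as do Psmb8 and Psmb9, so the 5 genes stand for 3 loci.

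Psmb10, the immunoproteasome subunit with trypsin-like activity, had 88.8 RXRα reads against 12.6 input reads, the most of any member (enrichment 7.05, 3.81 to 13.4). It had the highest RARα score of all members, 136, at chr8:108466941-108467850, but the summit lay 4973 bp upstream and 17 bp from the start of Lcat, which encodes a liver enzyme that esterifies the cholesterol of plasma lipoproteins. RXRα reads in that peak were 109 against 8 input reads, a 13.6-fold enrichment. A co-localized peak of score 27 beside it, 4423 bp upstream and also nearest to Lcat, had more, 221.2 against 11.8 reads (18.7-fold). The third co-localized peak, of score 60, lay 1157 bp downstream in an intron of Psmb10, with 60 against 6 reads (10-fold), and only a peak of 22 lay within 1 kb of the Psmb10 start.

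Psme1, the alpha chain of the interferon-inducible activator, had 70.8 RXRα reads against 9.2 input reads, the highest enrichment of all members (7.70, 3.93 to 18). An RXRα region with a highest ratio of 59.7 lay 224 bp upstream and had no overlapping RARα peak above the threshold. The RARα peak of Psme1 lay on the other side of the start, 430 bp into the gene, with a score of 37. The region is shown because it was the strongest RXRα region within 1 kb of any member and held no nuclear receptor hexamer on either strand. The hexamers searched were AGGTCA with its variant GGGTCA, and further AGTTCA with its variant GGTTCA. The sequence is that of chr14:56196673-56196800 on the plus strand of NCBIM37, in which no letter is in capitals as there was no match.
Psme1 region: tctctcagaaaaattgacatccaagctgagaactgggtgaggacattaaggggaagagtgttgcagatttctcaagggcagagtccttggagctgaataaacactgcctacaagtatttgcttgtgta
Psme2, the beta chain, had 44 RXRα reads against 21 input reads (2.10, 1.22 to 3.71) and RARα peaks of 54, 51 and 23 within 1 kb. Its start is 595 bp from that of Rnf31, a subunit of the linear ubiquitin ligase, which was nearer to the peak of 51. The co-localized peak it shares with Psme1 scored 21, near the threshold, and lay 26 bp from the start of Fam158a.

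Psmb8 and Psmb9, the other inducible protease subunits, had the lower values. At Psmb8, 8.2 RXRα reads faced 4 input reads (2.05, 0.536 to 9.08), which is not separable from input at this depth. Its peak within 1 kb scored 21, and a stronger one of 36 lay 6759 bp downstream and 953 bp from the start of Tap2, a chain of the peptide transporter. Psmb9 had 21.2 against 9.4 reads (2.26, 1.02 to 5.79) and peaks of 40 and 23, with the start of Tap1, the other chain of that transporter, 211 bp away on the opposite strand. The nearest RXRα regions were 2794 bp upstream of Psmb8 (ratio 43) and 7493 bp downstream of Psmb9 (46.5). The region upstream of Psmb8 lies in an exon of Tap1 and is also within reach of Psmb9.

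The 3 classes overlapped in their RXRα level, and their order depended on the setting. The quartiles of the enrichment were 2.30 and 4.585 for core and 3.02 and 4.75 for regulatory genes. For the 5 immunoproteasome genes they were 2.095 and 7.05. These values describe the spread over genes of 1 library, which are not replicates, so no order of the classes was tested. With the genome mean of input in place of local input, the medians became 9.67, 7.88 and 11.4, which turns the order around. The RARα scores of the strongest peaks had medians of 56.5, 54 and 40, with ranges that overlap as well. In the share of co-localized members the classes ran from 28.6% (core) through 41.2% (regulatory) to 60% (immunoproteasome). The share was 23.6% over all genes and 45.1% over all genes bound by RARα. With 4, 7 and 3 genes the class shares rest on few members, and within 1 kb they became 4, 5 and 0 genes (15.9% of all genes).

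The assembly chaperones help build the rings and the base and are not part of the finished particle. Of these, 5 of 7 had a RARα peak, all within 1 kb (71.4%, against 40.9% of all genes and 70.2% of the CpG-rich starts). The median enrichment was 3.33. Psmd9 had the co-localized peak of the class, with a score of 55 at 61 bp into the gene, 50.4 against 11 reads (4.58, 2.34 to 9.68) and 5 RXRα regions within 10 kb. Psmg3 had the highest enrichment (25.4 against 5.2 reads, 4.88, 1.88 to 16.7) and Psmd5 the highest score (78, 16 bp upstream). Psmg2 had 17.6 against 8.8 reads (2, 0.853 to 5.05), and its peak of score 28 was among the lowest of the members.

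The values of Psmd10 and Psmg4 were at the level of input. Psmd10, an oncoprotein also called gankyrin, had 8 against 8.8 reads (0.909, 0.298 to 2.60) and no RARα peak of any score within 10 kb, and its close neighbour Atg4a, 179 bp away, had an enrichment of 0.709. At Psmg4, 7 reads faced 7.4 (0.946, 0.299 to 3.34), and its highest RARα score, 18 at 703 bp upstream, fell just below the threshold.

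The other activators gave a mixed picture. Psme4, the large nuclear activator, had a peak of score 78 at 11 bp upstream and 23.8 against 9 reads (2.64, 1.2 to 6.52). Psme3 had 12.6 against 8.2 reads (1.54, 0.624 to 4.52), a peak of 34 at 98 bp into the gene and a stronger one of 69 at 7593 bp downstream, 1257 bp from the start of Aoc2. Psmf1, an inhibitor of the core, had 0.2 against 3 reads at its start, but a RARα peak of 44 lay 2847 bp into the gene, near a second transcript start at 2876 bp with 20 against 13.2 reads.

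The members outside the somatic particle served as a contrast within the family. Psma8, the alpha subunit of the testis, and Psmb11, the beta subunit of the thymus cortex, had no RARα peak of any score and no RXRα region, with 0 against 1 and 2 against 2 reads. Psme2b-ps had none either, with 3 against 3.8 reads. Psmc3ip had 30 against 11.6 reads (2.59, 1.24 to 5.36), a peak of 49 at 145 bp upstream and a co-localized peak of 42 at 8125 bp downstream, 34 bp from the start of Mlx.

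**Figure D4:**
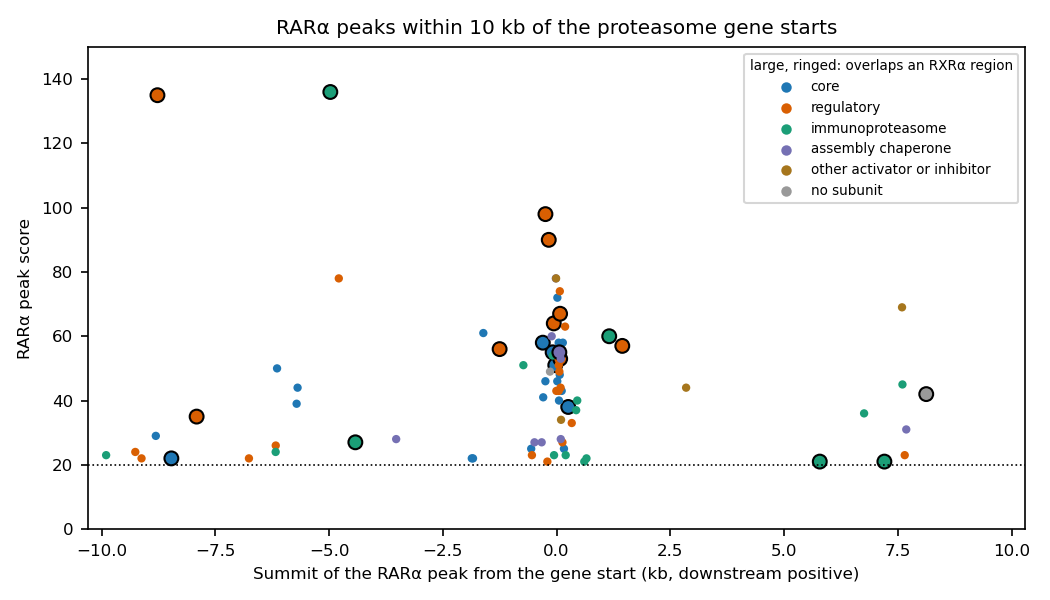
Score of each RARα peak above 20 (vertical axis) against the distance of its summit from the gene start (kb, horizontal axis, downstream positive), coloured by class, with ringed points for peaks that overlap an RXRα region. Of the 84 pairs of member and peak, 52 stand within 1 kb of the start, and the highest scores (136 and 135) lie 4973 and 8773 bp upstream, by Lcat and Pitpnc1.

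The strongest RARα peaks of the members were mostly promoter peaks of moderate height. Of the 43, 35 had the summit within 1 kb of the start, with a median position 47 bp downstream and a median width of 640 bp. Of all genes with a RARα peak within 10 kb, 78.3% had one of any rank within 1 kb. The position of the strongest peak over all genes is not given here. In the annotation of the member's own gene, 20 summits were outside the gene, 13 in an untranslated region, 8 in a coding exon and 2 in an intron, and 6 were nearer to the start of another gene. The median of the highest score was 54 (quartiles 44 and 64), close to the 48 over all genes with a peak (33 and 70), whose range reached 308. Near the threshold, the lowest highest scores that passed it were 25 (Psmb7), 27 (Psmd14) and 28 (Psmg2), and those that missed it were 18 (Psmg4) and 12 (Psmb5), while the other 5 members without a peak had none of any score.

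The ratio of RXRα to input at the strongest RARα peaks was above 1, but mostly without a region at the strict threshold. No interval was computed for these peaks, and some counts were low, such as 8.4 against 3.2 reads at Psmd14. A ratio above 1 there does not show RXRα beyond counting error. The enrichment in these peaks had a median of 3.92 (range 1.89 to 13.6), and 12 of the 43 peaks were co-localized. Values over all genes are not given for the strongest peak alone. Across the 43 members the highest RARα score and the RXRα enrichment at the start had a Spearman coefficient of 0.30, which is a description only since all points share the same libraries, and over the 11615 genes with a peak it was 0.23. Of the 84 pairs of a member and a peak, 52 were within 1 kb and 62 had the member as nearest gene. A single peak was found for 20 members and 23 had several.

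**Figure D5:**
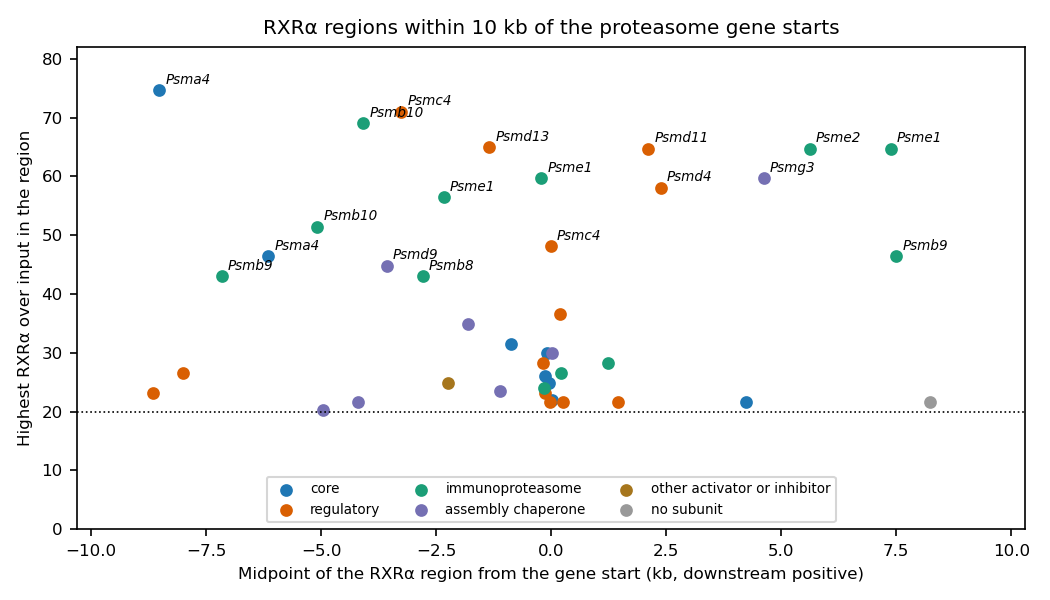
Highest ratio of RXRα to input in each RXRα region (vertical axis) against the distance of its midpoint from the gene start (kb, horizontal axis, downstream positive), coloured by class, with regions of high ratio named. Of the 15 regions within 1 kb, all but those of Psmc4 and Psme1 have ratios below 40, and the highest, 74.7 at Psma4, lies 8517 bp upstream.

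The RXRα regions had another layout than the RARα peaks, as they did over all genes. An RXRα region lay within 10 kb of 8858 genes and within 1 kb of 4804, against 23 and 12 members. For RARα peaks these counts were 11615 and 9099 genes, against 43 and 41 members. Of 42 pairs of a member and a region (40 distinct regions), 15 were within 1 kb and 27 beyond, and the strongest region was within 1 kb for 4 of 23 members. The highest ratios had a median of 30.8 (range 20.2 to 74.7), against 34.9 over all RXRα regions. Psmc4 had one of 71 at 3264 bp upstream, Psmd13 one of 65 at 1355 bp upstream, Psmd4 one of 58.1 at 2376 bp downstream in an intron, and Psmg3 one of 59.7 at 4621 bp downstream. Of these 4, the one of Psmd13 overlapped a RARα peak above the threshold. In the 23 strongest regions, the member was the nearest gene for 16.

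The letters of these regions were examined for the same 4 nuclear receptor hexamers on both strands in windows of 201 bp. A match was found in 22 of 40 member regions (55%), against 65.2% of all 42117 RXRα regions, and in 25 of 82 member RARα peaks (30.5%), against 36.1% of all 32946. Direct repeats of these exact hexamers with 1 to 5 bases between them were in 0 of 40 and 0 of 82, against 3.04% of all regions and 0.677% of all peaks. Promoters of the members held a hexamer in 20 of 50 cases (40%), against 40.9% of all promoters. The ETS core was found in 14 of the 82 RARα peak windows (17.1%), against 6.09% of all filtered RARα peaks. The member sets lie within 10 kb of a gene start, while all regions and all filtered peaks were not chosen by position. In CpG-rich promoters of 300 bp the ETS core was at 19.2%. The difference between these sets was not tested. A region outside promoters that holds a hexamer is shown for 3 members with the hexamer in capitals, on the gene's strand of NCBIM37, from chr9:54792385-54792512 (plus) for Psma4, chr11:80244097-80244352 (plus, intron) for Psmd11 and chr17:34317121-34317312 (minus) for Psmb9, where TGACCT is AGGTCA on the other strand.
Psma4 region: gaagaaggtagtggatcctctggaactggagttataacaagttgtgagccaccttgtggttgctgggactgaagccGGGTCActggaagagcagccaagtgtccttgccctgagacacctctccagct
Psmd11 region: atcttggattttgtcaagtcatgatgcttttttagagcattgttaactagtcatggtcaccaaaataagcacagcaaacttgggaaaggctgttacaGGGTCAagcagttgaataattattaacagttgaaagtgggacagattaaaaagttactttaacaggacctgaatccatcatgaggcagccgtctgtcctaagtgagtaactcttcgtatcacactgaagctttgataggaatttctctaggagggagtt
Psmb9 region: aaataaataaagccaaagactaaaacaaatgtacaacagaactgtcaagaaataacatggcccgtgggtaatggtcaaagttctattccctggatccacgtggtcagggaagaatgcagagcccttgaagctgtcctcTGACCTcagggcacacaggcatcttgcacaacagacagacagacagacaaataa
These regions had highest ratios of 46.5, 64.7 and 46.5, and none of them overlapped a RARα peak above the threshold. They were chosen because they hold a hexamer. Other strong regions hold none within their bounds, among them the strongest, 8517 bp upstream of Psma4 (74.7), and that 1355 bp upstream of Psmd13 (65).

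Other promoter motifs are given beside their share of all promoters. The GC box GGGCGG was in 29 of 50 members (58%), against 43.5% of all promoters and 72.7% of the CpG-rich ones. CCAAT was in 20 (40%), against 38%, and in 9 of the 14 core genes. The motif GAAANNGAA, which resembles the interferon-stimulated response element, was in 7 members (14%) and in 0 of the 5 immunoproteasome genes. The share was 8.94% of all promoters and 6.22% of the CpG-rich ones. In windows of 201 bp this motif was in 4 of 40 member RXRα regions (10%, against 5.49% of all regions). It was in 8 of 82 member RARα peaks (9.76%, against 4.78% of all filtered peaks). Here too the full sets were not chosen by position, and the differences were not tested. The motif of nuclear respiratory factor, GCGCATGCG, was in 2 (4%), against 2.11%.

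Genes that work with the proteasome also carried RARα peaks in most cases. Of 26 symbols in a list of partners, 25 were matched, and 24 had a RARα peak within 10 kb (96%, against 52.3% of all genes and 76.6% of the CpG-rich starts). An RXRα region was found for 14 (56%, against 39.9% and 51.8%) and a co-localized peak for 12 (48%, against 23.6% and 33.9%). Among the partners with a RARα peak this was 50%, against 45.1% over all genes bound by RARα. Of the partners 80% had CpG-rich starts, and the median enrichment was 4.30. The highest was Nfe2l2, the oxidative stress factor, with 181.6 RXRα reads against 9.2 input reads (19.7, 10.4 to 44.9), 7 RXRα regions and a RARα score of 114. Nfe2l1 had 55.8 against 9.4 reads (5.94, 3.06 to 14.3). Usp14, the deubiquitinase bound to the particle, was the only one without a peak, with 4.6 against 9.6 reads (0.479, 0.134 to 1.60).

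Antigen processing genes were compared because the immunoproteasome works with them. Of 8 symbols 7 were matched, and all 7 were bound by both receptors within 10 kb, against 52.3% (RARα) and 39.9% (RXRα) of all genes. A co-localized peak was found at 5 (71.4%), against 23.6% of all genes and 45.1% of all genes bound by RARα. Their median enrichment, 2.47, was close to that of the immunoproteasome genes (2.26). Tapbp (5.44) and Irf1 (5.12) had the highest values, and Tap1 (1.87) and Tap2 (1.2), which neighbour Psmb9 and Psmb8, had the lowest. The peaks of these neighbours are partly those already given for Psmb8 and Psmb9.

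The ribosomal protein genes, also made for large housekeeping complexes, gave a frame for the shares. Of 77 genes of the mitochondrial ribosome (Mrpl and Mrps), 90.9% had a RARα peak within 1 kb and 41.6% a co-localized one, with a median enrichment of 3.44. Of 144 genes named Rpl or Rps, 56.9% had a RARα peak within 1 kb and 29.9% a co-localized one, with a median of 2.14. The members, at 82%, 32% and 3.02, lay between them. The highest RARα scores had medians of 53 (mitochondrial ribosome), 69 (Rpl and Rps) and 54 (members).

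There are 10 members with another gene that starts within 1 kb on the opposite strand, and for these the binding cannot be assigned to either gene. They are Psma2 (Mrpl32, 217 bp), Psma4 (AY074887, 164 bp), Psma7 (Ss18l1, 76 bp), Psmb9 (Tap1, 211 bp), Psmc2 (Dnajc2, 32 bp), Psmc5 (Ftsj3, 75 bp), Psmd10 (Atg4a, 179 bp), Psmd13 (Sirt3, 341 bp), Psme2 (Rnf31, 595 bp) and Psmg2 (Cep76, 263 bp). Of the 10, Psmd10 was the one without a RARα peak. Psmb1, a beta subunit, had its strongest peak (61) 1610 bp upstream, where it lies 2 bp from the start of Tbp, the TATA-binding protein, and its own start had a peak of 46 with 14.8 against 6.6 reads (2.24, 0.822 to 6.21).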

How the data were processed

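RXRα, RARα and input libraries of mouse liver, 1 each, were taken as the authors deposited them. The authors aligned the reads with Bowtie and called RARα peaks with MACS, per the labels and the methods. The RXRα and input files hold a signal, the coverage of reads in bins of 32 bp as the authors deposited it, with nearly equal totals in both tracks. Each read was taken to add 1 to each of 5 bins, so signal divided by 5 was used as reads. Whether the values are whole reads or rescaled was not tested. The RARα peaks come with a score and an FDR in percent, both as deposited by the authors, and whether that score is the fold over input used in the methods as a limit is not given in the sources used here. The labels name build mm9 and the methods another build for alignment, but all positions lie within the mm9 chromosomes.

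The steps here were run with Python 3.11.15, numpy 2.4.6, pandas 2.3.3, scipy 1.17.1 and matplotlib 3.10.9. RXRα bins at 20 times the larger of local and mean input, once the tracks had been brought to an equal mean, were joined within 200 bp. A gene start is the 5′ end of the longest gene model of a symbol. Gene starts were called CpG-rich where the observed to expected CpG ratio in the 300 bp promoter was at least 0.6. The intervals are exact 95% intervals of a ratio of 2 counts. The scripts were tested on simulated data.

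The members, classes, gene lists, motifs and thresholds were chosen with earlier results of these data known. Every member could be named. Full values were given for the members with the highest and lowest enrichment and score of each class, the immunoproteasome genes, the members without a RARα peak and those with a co-localized peak, and genes that start within 1 kb of a member and some of the listed partner and antigen processing genes were named besides. A member outside this rule that is described in full was chosen after its values were seen (Psmb6, Psmb1, Psme3). Of the gene lists, Paaf1 and Nlrc5 were not matched. The values of other listed genes are not reported here.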

Additional observations from a re-analysis of the deposited data

How the results depend on the processing

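Of 75 recomputed values under other settings, 51 stayed close to the reported ones and 24 moved. RARα: with a score above 50 instead of 20, 28 members had a peak within 10 kb (24.6% of all genes) and 23 within 1 kb (18.4%). RXRα: regions within 10 kb were found for 43 members at 10 times input (60.3% of all genes), 15 at 30 times (27.9%), 37 with mean input only (52.1%) and 12 within 1 kb (21.6%). Co-localized members were 31, 7, 30 and 10 under the same 4 settings, against 39.0%, 14.9%, 36.3% and 15.9% of all genes. By class, co-localized core genes were 10, 1 and 10 and regulatory genes 13, 3 and 12 at 10 times input, 30 times input and mean input only. Co-localized immunoproteasome genes were 5 with no score threshold, 1 with a score above 50, 0 within 1 kb and 1 with peaks given to the nearest gene only. With mean input only, the median enrichment was 7.80 for all members (2.38 over all genes), 9.67 for core, 7.88 for regulatory and 11.4 for immunoproteasome genes. The causes of these moves were not tested, beyond the stricter or looser threshold that each setting sets by construction. Windows of 250 bp or 1 kb, 1 added read, another overlap, merged RARα peaks, unscaled tracks and other transcript starts moved no value beyond its range. No paired analysis was possible because each group has 1 library. With 1 library per group the spread between animals is unknown, and at input counts of a few reads only large ratios can be seen.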
